A study of Mus musculus with 2 samples.

Results

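The matrix metalloproteases, the ADAMTS proteases with their ADAMTS-like relatives, and the tissue inhibitors of metalloproteases were taken by gene symbol from the protein-coding genes of the deposited tables. The rule gave 51 genes of 55536 Ensembl genes, of which 21901 were protein-coding: 23 Mmp genes, 19 Adamts genes, 5 Adamtsl genes and 4 Timp genes. They were measured by total RNA-seq of the gastrocnemius, the main calf muscle, in female B6CASTF1/J mice aged 4 days, which are F1 hybrids of C57BL/6J and CAST/EiJ. The series held 1 group of 2 libraries from biological replicates 1 and 2 (animals 3 and 4, under 1 donor record), each from 300 ng of RNA with ribosomal RNA reduced and ERCC spike-ins added. No treatment, mutation or second condition was part of the design. The RNA came from bulk tissue, so fewer cells of a type and less RNA per cell cannot be told apart.

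Matrix metalloproteases (MMPs) and ADAMTS proteases are zinc-dependent enzymes that cut proteins outside the cell, such as collagens and proteoglycans. Most are made as inactive proenzymes, and membrane-bound or proprotein convertase enzymes activate many of them. The TIMP proteins bind the active site and block it, and Timp2 is also known to help Mmp14 activate the proenzyme of Mmp2 at the cell surface. The ADAMTS-like proteins share the accessory domains of the ADAMTS proteins and lack the protease domain. In muscle these genes are known mainly from fibroblasts, vessels and infiltrating leukocytes, and from the remodelling of the matrix around fibres.

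The zinc-binding site that makes these proteins proteases was read from the coding sequence, since it separates the proteases from the other genes of the set. In the longest annotated coding sequence of each gene (GENCODE M21, build mm10), a stretch of 11 codons was searched. It had histidine codons at its start, at place 5 and at place 11, with a glutamate codon directly after the first. These histidines bind the zinc ion, and the glutamate takes part in the cut. The stretch was found in 22 of 23 Mmp genes and in 19 of 19 Adamts genes, and in 0 of 5 Adamtsl genes and 0 of 4 Timp genes. The Mmp gene without it was Mmp1a, whose annotated gene class is polymorphic pseudogene. The 33 bases are shown for Mmp2 (chr8:92839279-92839311, plus strand) and Mmp14 (chr14:54437627-54437659, plus strand), the most abundant proteases. They are also shown for Mmp9 (chr2:164951133-164951165, plus strand) and Mmp13 (chr9:7276573-7276605, plus strand), which differed most between the libraries. Histidine and glutamate codons are in capitals.
Mmp2: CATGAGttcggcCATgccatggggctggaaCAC
Mmp14: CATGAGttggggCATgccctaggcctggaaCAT
Mmp9: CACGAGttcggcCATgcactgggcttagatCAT
Mmp13: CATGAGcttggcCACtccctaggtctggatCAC

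The Adamts genes shown for comparison are Adamts10, the highest of its family by gene TPM, Adamts12, Adamts1 and Adamts5. Their sites are cut by an intron and join coding bases of 2 exons each. In Adamts10 these were chr17:33538157-33538173 and chr17:33538264-33538279 on the plus strand. In Adamts12 they were chr15:11241529-11241545 and chr15:11255549-11255564 on the plus strand. In Adamts1 they were chr16:85799536-85799545 and chr16:85799191-85799213, and in Adamts5 chr16:85887817-85887826 and chr16:85878015-85878037, both on the minus strand.
Adamts10: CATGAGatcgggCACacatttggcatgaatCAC
Adamts12: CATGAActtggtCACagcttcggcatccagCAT
Adamts1: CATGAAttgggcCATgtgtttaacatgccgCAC
Adamts5: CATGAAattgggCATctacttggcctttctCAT

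All 22 Mmp sites lay within 1 exon, whereas all 19 Adamts sites were split by an intron, of 90 bases in Adamts10 up to 33543 bases in Adamts17. The intron came after base 10 of the stretch in 5 genes (Adamts1, Adamts4, Adamts5, Adamts8 and Adamts15) and after base 17 in the other 14. At codon 8 all 22 Mmp sites had a glycine codon. Of the Adamts sites, 13 had glycine there, 5 had asparagine (Adamts1, Adamts4, Adamts9, Adamts15 and Adamts20) and Adamts8 had serine. Over the 33 bases, pairs of Mmp sites shared a median of 23 bases (18 to 29), pairs of Adamts sites 21 (16 to 30), and pairs of one Mmp with one Adamts site 20 (15 to 25). The Adamts19 site was left out of these pairs.

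The libraries of replicates 1 and 2 held 30961087 and 36246031 expected counts, spike-ins included. Of these the 51 genes had 51541 and 56284, or 0.168% and 0.156% of the gene counts. Detection was set at 1 TPM (an abundance corrected for transcript length and library depth) or more in both libraries. By this rule 32 of the 51 genes were detected, beside 55% of all protein-coding genes (12051 of 21901). Detection took in 17 of 19 Adamts genes, 4 of 5 Adamtsl genes and 3 of 4 Timp genes, but 8 of 23 Mmp genes. Values below are given per library in TPM, or as mean ± SD over both libraries (n = 2). The smallest p that an exact permutation test of 2 against 2 values can give, without pairing by library, is 0.333. No such p is given. Ratios between genes or families were taken within each library, and the spread between libraries serves as the error.

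**Figure D1:**
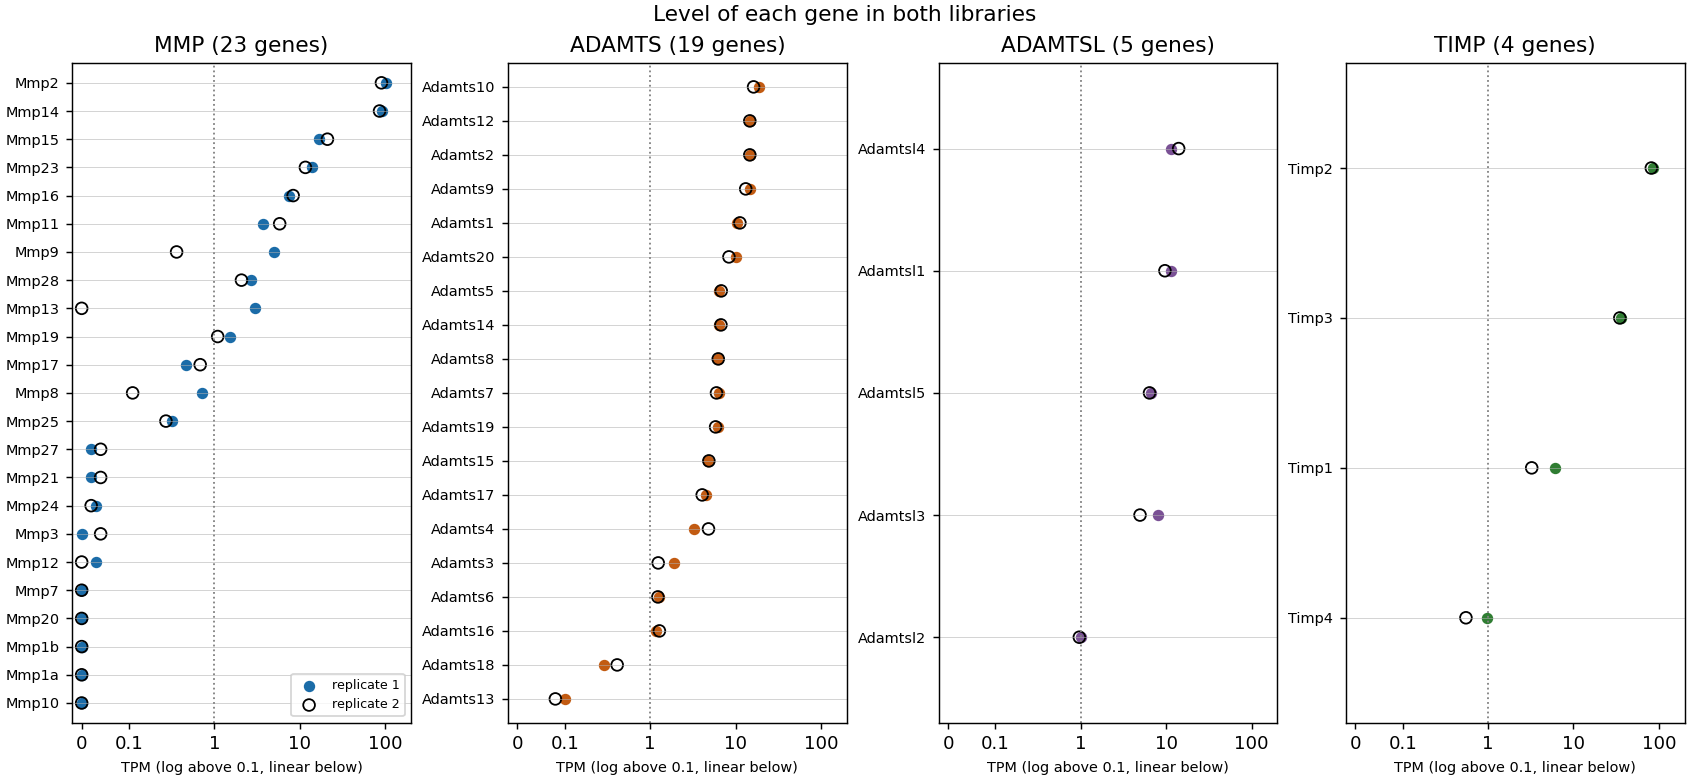
Level in TPM (horizontal axis, logarithmic above 0.1 and linear below) of each of the 51 genes, by family; filled points are replicate 1, open points replicate 2, and the dotted line is the detection minimum of 1 TPM. Mmp2, Mmp14 and Timp2 stand highest, 5 Mmp genes lie at 0 in both libraries, and Mmp9 and Mmp13 are the widest pairs.

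Transcripts of 2 proteases made up most of the Mmp level. The gelatinase gene Mmp2 (chr8:92827291-92853420), whose enzyme cuts denatured collagen and basement membrane collagen, had 102 TPM in replicate 1 and 90.3 TPM in replicate 2. The membrane-type gene Mmp14 (chr14:54431612-54445364), a collagenase of the cell surface and the main activator of Mmp2, had 92.1 and 85.7 TPM. The ranges of the 2 genes overlapped, so they were not separated beyond their spread. Mmp2 took 40.3% ± 0.842 of the summed Mmp TPM and Mmp14 took 37.3% ± 0.542. Their levels exceeded those of 95.2% and 94.7% of the detected protein-coding genes. The order of this pair depended on how the level was taken: Mmp2 was 1.11-fold and 1.05-fold Mmp14 by gene TPM, 0.998-fold and 0.976-fold by expected counts, and 0.787-fold and 0.773-fold by the leading transcript of each gene.

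The other gelatinase gene, Mmp9, was far below Mmp2 and uneven, with 4.98 TPM in replicate 1 and 0.36 in replicate 2. Among the remaining membrane-type genes, Mmp15 had 16.6 and 21.03 TPM and Mmp16 had 7.49 and 8.34 TPM. Both were thus well under Mmp14, and their own values did not overlap. Mmp17, whose enzyme is held to the membrane by a lipid anchor, stayed under detection with 0.47 and 0.68 TPM (83 and 120 counts). Mmp25, also lipid-anchored and known from leukocytes, had 39 and 35 counts, and Mmp24, known from nervous tissue, had 3 in each library.

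None of the 4 genes grouped as secreted collagenases (Mmp1a, Mmp1b, Mmp8 and Mmp13) was detected in both libraries. Mmp13 had 2.97 TPM in replicate 1 and 0 in replicate 2, and Mmp8, the neutrophil collagenase gene, had 0.72 and 0.11 TPM. Mmp1a and Mmp1b had 0 counts in both libraries. Of the stromelysin and matrilysin group, Mmp11, a stromelysin gene known from remodelling tissue, had 3.66 and 5.80 TPM. Mmp3 had 0 and 2 counts, and Mmp10 and Mmp7 had 0 in both libraries. A count of 0 allows up to 3 counts, or 0.0976 CPM (counts scaled to library size) in replicate 1 and 0.0834 in replicate 2, and this limit covers counting error only.

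Of the other Mmp genes, Mmp23 led with 14.0 and 11.6 TPM. Mmp28, known from epithelia, had 2.67 and 2.07 TPM, and Mmp19 had 1.52 and 1.09 TPM. Among the detected genes the order by gene TPM of Mmp15, Mmp23, Mmp16, Mmp11, Mmp28 and Mmp19 was the same in both libraries. By this measure no neighbours in it overlapped. By expected counts Mmp16 (679 and 837) stood above Mmp23 (437 and 431). In the other deposited quantification Mmp23 was above Mmp15 in replicate 1 (26.8 against 26.1 TPM) and below it in replicate 2 (21.6 against 31.8 TPM). The macrophage elastase gene Mmp12 had 1 count in replicate 1 and 0 in replicate 2. Mmp21 and Mmp27 had 1 and 2 counts each, and the enamel protease gene Mmp20 had 0 in both.

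The Mmp genes under detection were concentrated in 1 gene cluster. Of the 23 Mmp genes, 10 lie within 427 kb of chromosome 9 (chr9:7272514-7699585), among them the 4 secreted collagenase genes, the stromelysin genes Mmp3 and Mmp10 and the matrilysin gene Mmp7. None of these 10 was detected, and 8 had a mean under 3 counts. They summed to 263 counts in replicate 1, mostly Mmp13, and to 12 in replicate 2. In the other deposited quantification Mmp12 alone had 67.2 and 59.6 counts. The sum in replicate 2 and the number of genes under 3 counts thus depended on the quantification. Of the 13 Mmp genes elsewhere, 8 were detected, and they summed to 16808 and 18168 counts.

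The start regions of the cluster genes differed in base composition from those of the detected genes, and a pair of examples is shown from each. RefSeq windows of the 250 bases before the start (build GRCm38.p6) matched 36 of the 51 genes. They covered 19 of the 32 detected genes, without Mmp2, and 17 of the 19 genes under detection. Of these starts, 4 lay over 100 bases from the GENCODE start: Adamts18 (101), Timp2 (329), Mmp11 (3994) and Adamts20 (61068). Capitals mark CpG pairs and the letters TGAGTCA or their reverse complement TGACTCA, a motif of the AP-1 factors, which holds no CpG. The windows are from Mmp13 (chr9:7272264-7272513, plus strand), Mmp3 (chr9:7445572-7445821, plus strand), Mmp14 (chr14:54431348-54431597, plus strand) and Adamts9 (chr6:92943535-92943784, minus strand), each written 5′ to 3′.
Mmp13: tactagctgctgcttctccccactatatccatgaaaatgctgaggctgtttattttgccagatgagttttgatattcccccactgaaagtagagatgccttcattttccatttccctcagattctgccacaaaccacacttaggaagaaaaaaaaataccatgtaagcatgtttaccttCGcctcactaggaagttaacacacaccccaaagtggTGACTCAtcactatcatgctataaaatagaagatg
Mmp3: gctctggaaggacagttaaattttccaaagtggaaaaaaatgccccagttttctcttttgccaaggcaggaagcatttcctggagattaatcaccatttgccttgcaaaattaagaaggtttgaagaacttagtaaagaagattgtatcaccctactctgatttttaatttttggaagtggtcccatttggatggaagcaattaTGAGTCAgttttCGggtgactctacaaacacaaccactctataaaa
Mmp14: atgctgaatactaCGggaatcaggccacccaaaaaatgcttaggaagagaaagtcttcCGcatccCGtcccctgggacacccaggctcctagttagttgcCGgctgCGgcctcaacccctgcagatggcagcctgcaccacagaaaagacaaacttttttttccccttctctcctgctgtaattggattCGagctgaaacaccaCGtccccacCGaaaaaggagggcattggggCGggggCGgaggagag
Adamts9: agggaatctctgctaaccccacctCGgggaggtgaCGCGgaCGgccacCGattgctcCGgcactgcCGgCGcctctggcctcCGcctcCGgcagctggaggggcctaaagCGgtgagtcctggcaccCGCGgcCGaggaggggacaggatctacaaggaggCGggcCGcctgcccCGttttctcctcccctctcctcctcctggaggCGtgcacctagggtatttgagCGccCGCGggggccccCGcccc

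Windows of the 19 detected genes with a match held a median of 17 CpG pairs (6 to 39), against 10 over 20143 windows of protein-coding genes. The 10 windows of the chromosome 9 cluster held a median of 0.5 (0 to 4), and the 7 other windows of genes under detection a median of 8 (1 to 33). At least 10 CpG pairs stood in 17 of 19 windows of detected genes and in 51.7% of all windows. The latter share was taken over protein-coding genes whether detected or not. For genes under detection, 0 of the 10 cluster windows and 3 of the 7 other windows reached 10 pairs. The exceptions were Adamts12 and Timp1, detected with 6 pairs each, and Mmp24, Mmp25 and Adamts18, under detection with 33, 17 and 15. TGAGTCA on either strand was found in 6 of the 10 cluster windows (Mmp1a, Mmp1b, Mmp3, Mmp7, Mmp10 and Mmp13), in 0 of the 26 other windows and in 4.05% of all windows. In Mmp13 and Mmp3 it ended 28 and 39 bases before the RefSeq start. A match is a run of letters in the window and no measure of binding.

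**Figure D2:**
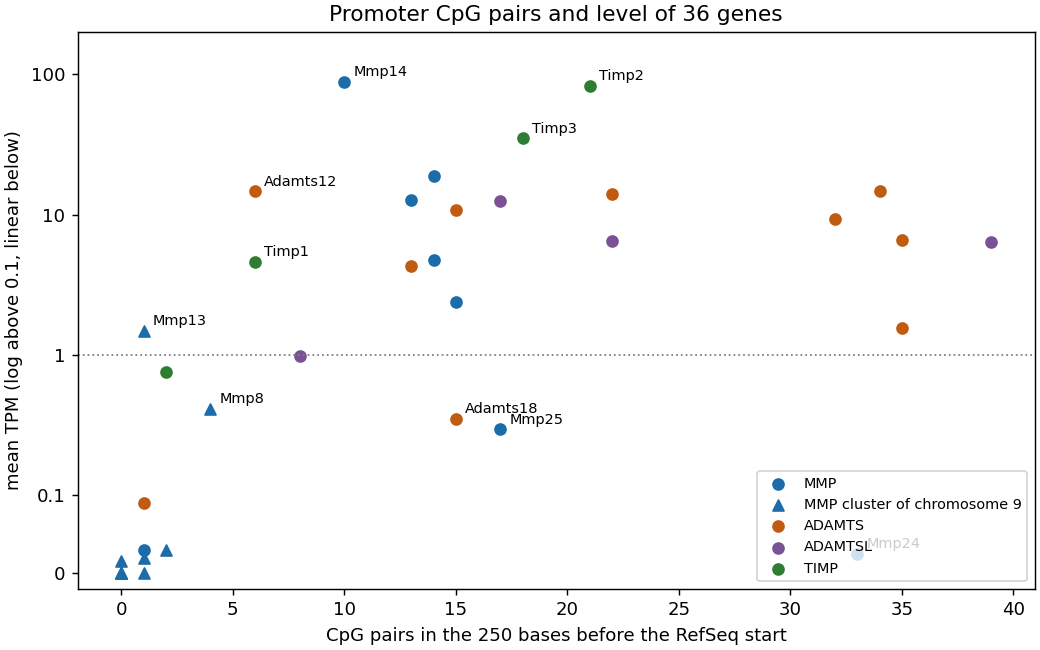
CpG pairs in the 250 bases before the RefSeq start (horizontal axis) against mean TPM of both libraries (vertical axis, logarithmic above 0.1 and linear below) for 36 genes, coloured by family, with triangles for the Mmp cluster of chromosome 9. All cluster genes sit at 0 to 4 pairs, while Mmp14 has 10 and Timp2 has 21. Of the 250 bases for Timp2, 203 lie in annotated exons of that gene.

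The Adamts genes were spread more evenly than the Mmp genes. Adamts10, whose protein binds microfibrils of fibrillin, had 18.8 and 16.2 TPM and took 13.4% ± 1.00 of the Adamts sum by TPM. By expected counts its share was 6.48%, below Adamts12 (15.7%), Adamts2 (13.6%), Adamts9 (13.3%), Adamts5 (10.1%), Adamts20 (6.81%) and Adamts1 (6.67%). Its top place thus held for TPM and not for counts. The next 3 genes by TPM, Adamts12, Adamts2 and Adamts9, lay between 13.1 and 14.9 TPM and could not be ordered beyond their spread.

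The genes of the proteoglycan-cleaving enzymes were all detected, 7 of 7, and summed to 56.2 and 55.4 TPM. Adamts9 had 14.9 and 13.1 TPM, Adamts1 had 10.4 and 11.2, and Adamts20 had 10.2 and 8.35. Adamts5 and Adamts4, whose enzymes are known for cutting aggrecan, were lower, with 6.43 and 6.78 TPM and with 3.24 and 4.81 TPM. Adamts8 had 6.30 and 6.26 TPM and Adamts15 had 4.78 and 4.86 TPM. By counts Adamts8 had a log2 ratio of -0.0026, whereas Adamts15, with 675 and 887 counts, had 0.22 (counting interval 0.071 to 0.36). Adamts4 was the member of this group with the widest gap, with 380 and 647 counts and a log2 ratio of 0.59.

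The procollagen N-proteinase genes, whose enzymes remove the amino-terminal propeptide of fibrillar procollagens, were led by Adamts2 with 14.7 TPM in both libraries. Adamts14 had 6.41 and 6.73 TPM, and Adamts3 had 1.88 and 1.24 TPM. Adamts2 was 2.29-fold and 2.18-fold Adamts14. Of the genes whose enzymes cut cartilage oligomeric matrix protein, Adamts12 had 14.9 and 14.7 TPM and Adamts7 had 6.45 and 5.97 TPM. Adamts13, whose enzyme cuts von Willebrand factor and which is made mainly in liver, had 4 and 3 counts.

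Of the remaining Adamts genes, Adamts19 had 6.23 and 5.83 TPM and Adamts17 had 4.49 and 4.06 TPM. Adamts6 had 1.27 and 1.23 TPM, Adamts16 had 1.18 and 1.28 TPM, and Adamts18 was under detection with 0.29 and 0.41 TPM. In this group only Adamts10 passed 10 TPM.

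The Adamtsl genes summed to 38.3 and 35.9 TPM. Adamtsl4, a gene of a fibrillin-binding protein, had 11.2 and 14.0 TPM, and Adamtsl1 had 11.4 and 9.65 TPM, so their order differed between the libraries. Adamtsl3 had 7.93 and 4.93 TPM and Adamtsl5 had 6.68 and 6.37 TPM, which also overlapped. Adamtsl2 missed detection by a small margin, with 1.01 and 0.96 TPM.

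Among the inhibitors, Timp2 (chr11:118301069-118355740) had 84.9 TPM in replicate 1 and 81.6 in replicate 2. It took 67.2% ± 0.892 of the summed Timp TPM. Timp3 (chr10:86300372-86349506), whose protein binds to the matrix and also inhibits ADAMTS proteases, had 35.7 and 34.9 TPM, or 28.5% ± 0.737. Timp2 was thus 2.38-fold and 2.34-fold Timp3 by TPM, and their values did not overlap. The ratio was 1.46 and 1.40 by expected counts and 3.50 and 3.37 in the other quantification, where Timp3 took 40.5% and 21.7% of the Timp sum in that order. Timp1, an inhibitor gene known for induction by injury, had 6.00 and 3.24 TPM (125 and 78 counts). Timp4, known from heart, had 0.96 and 0.55 TPM (97 and 81 counts).

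Summed over families, protease transcripts exceeded inhibitor transcripts. The Mmp genes summed to 250 and 227 TPM, the Adamts genes to 133 and 128 TPM, and the Timp genes to 128 and 120 TPM. Mmp and Adamts genes together stood at 3.00-fold the Timp sum in replicate 1 and 2.95-fold in replicate 2 (2.98 ± 0.0306). Mmp genes alone stood at 1.92 ± 0.0457 and Adamts genes alone at 1.05 ± 0.0151. The Adamtsl genes were left out of these sums. By expected counts, which are not scaled for length, the ratio of Adamts to Timp was 1.85. It was 0.825 in the other deposited quantification and 0.828 over protein-coding transcripts, so which of these 2 families was higher turned with the measure. Mmp genes and the joint protease sum stayed above the Timp sum in each of these settings. Without Mmp2 and Timp2 the joint ratio was 6.72. These are RNA levels, and proenzyme activation and protein amounts were not measured.

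**Figure D3:**
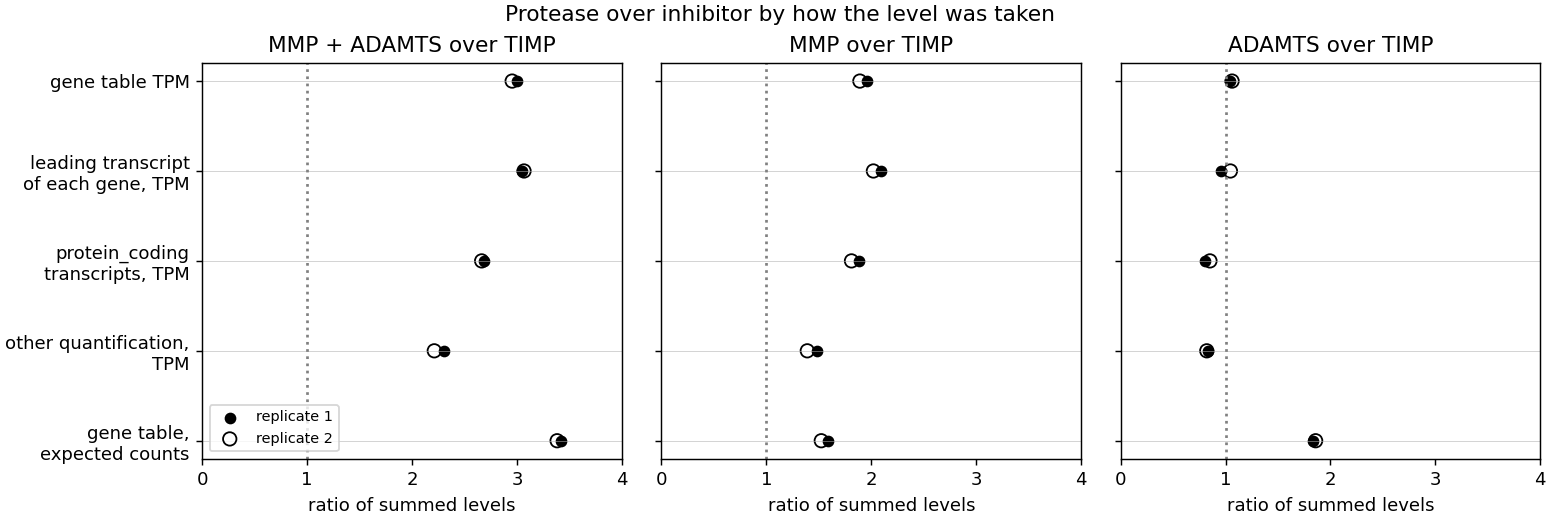
Ratio of summed protease to summed inhibitor levels (horizontal axis, no unit) for 3 sums (panels) and 5 ways of taking the level (rows); filled points are replicate 1, open points replicate 2, and the dotted line is a ratio of 1. The joint ratio lies between 2.21 and 3.42 in all rows, and the Adamts ratio lies on both sides of 1.

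The closest protease and inhibitor pairs were Mmp2 or Mmp14 against Timp2. Mmp2 was 1.20-fold and 1.11-fold Timp2 by TPM, 0.983-fold and 0.927-fold by expected counts, and 0.732-fold and 0.688-fold in the other quantification. Mmp14 was 1.08-fold and 1.05-fold Timp2 by TPM and 0.748-fold and 0.715-fold in the other quantification. These 3 transcripts therefore stood within 1.5-fold of each other in every measure used.

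Short transcripts held part of the Mmp2 and Timp2 levels. Mmp2-201, of 3078 bases, held 66.9% ± 1.87 of the Mmp2 TPM, and Mmp2-203, of 674 bases, held 32.5% ± 1.97. Mmp2-203 had 556 and 513 counts against 5581 and 5830 for Mmp2-201, so its share of counts was smaller than its share of TPM. Timp2-201, of 3709 bases, held 67.5% ± 0.384 of the Timp2 TPM, and Timp2-202, of 718 bases, held 32.5% ± 0.384. In the other quantification Timp2-202 held 53.6%. The leading transcripts of Mmp14 (Mmp14-201, 92.7% ± 0.461), Mmp15 (Mmp15-201, 97.3% ± 0.487) and Timp3 (Timp3-201, 90.9% ± 3.44) took nearly the whole level. Timp1-201 held 66.1% ± 18.8 and Timp4-201 held 72.0% ± 16.4, at under 150 counts each.

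Of the 32 detected genes, 31 had a protein-coding leading transcript, and Adamtsl5 was led by a retained-intron transcript (Adamtsl5-203, 27.8% ± 0.393). The leader held over 50% of the gene TPM in 25 genes and was the same in the other quantification in 29. Transcripts of other classes held a median of 13.1% of the gene TPM. The highest shares were 67.3% in Adamts6, 65.6% in Adamts10 and 60.8% in Adamtsl5. Adamts10-201, its leading protein-coding transcript, held 19.7% ± 0.833. The top place of Adamts10 among the Adamts genes thus included much TPM outside protein-coding transcripts.

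The libraries were close for most of these genes, and the exceptions were Mmp genes. Ratios between libraries (replicate 2 over replicate 1, after edgeR scaling) were taken where the mean reached 10 counts, which held for 40 of the 51 genes. The median log2 ratio was -0.07, beside -0.00151 over all 17581 such genes; 15 were higher and 25 lower in replicate 2. Of the 35 genes with a mean of 100 counts or more, 2, Mmp9 and Mmp13, were over 2-fold lower in replicate 2 and 0 were over 2-fold higher. Among all 12256 genes at that depth, 0.718% were over 2-fold apart and 0.465% were over 2-fold lower in replicate 2. With the minimum at 10 counts Mmp8 joined them (3 of 40), beside 3.75% over 2-fold apart and 2.73% over 2-fold lower among all genes. With 1 library against 1 no p-value was computed.

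Mmp9 (chr2:164940780-164955850) had 429 counts in replicate 1 and 35 in replicate 2. It was 13.9-fold lower in replicate 2, with a 95% interval of 9.81 to 20.2 for counting error only. Mmp13 (chr9:7272514-7283331) had 214 counts and 0. Against a floor of 3 counts in replicate 2 it was at least 80.7-fold lower. The 95% counting interval, which also takes in the error of the 214 counts, reached down to 65.0-fold. Mmp8 (chr9:7558456-7568485) had 47 and 8 counts and was 6.64-fold lower, with an interval of 3.11 to 16.3. All 3 were higher in replicate 1 than in replicate 2, and their values by the other quantification had the same direction.

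**Figure D4:**
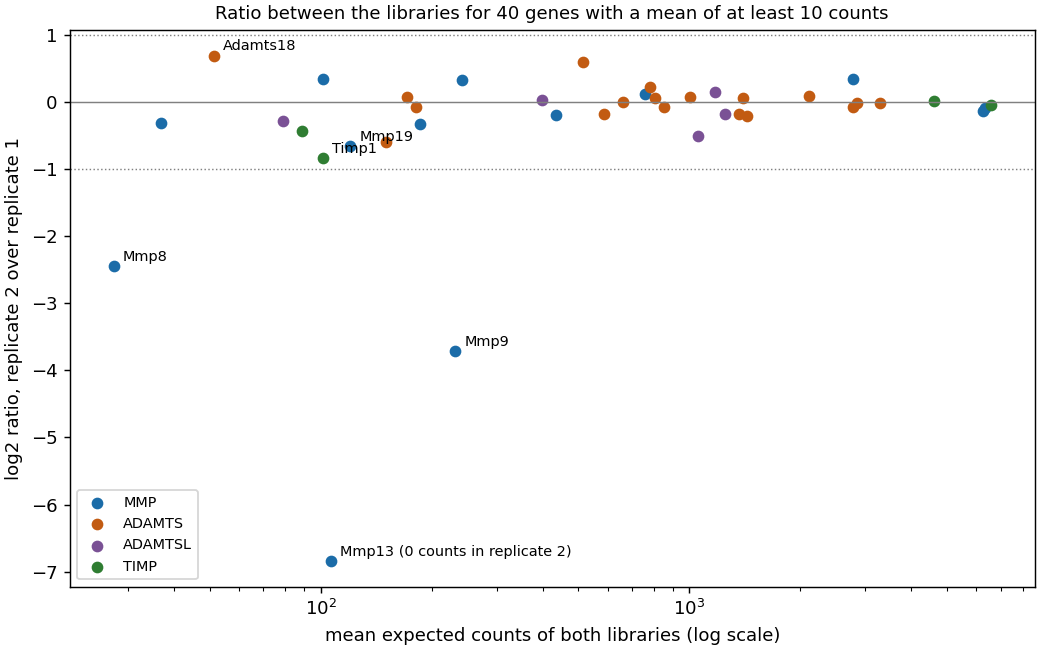
Log2 ratio of replicate 2 over replicate 1 (vertical axis) against mean expected counts (horizontal axis, logarithmic) for the 40 genes whose mean reached 10 counts, coloured by family, with dotted lines at 2-fold. Mmp13, Mmp9 and Mmp8 lie below the lower line and the other 37 genes lie between the lines; the Mmp13 point depends on the prior count, since replicate 2 had 0 counts.

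Markers of several other cell types were also lower in replicate 2. All 7 neutrophil markers were over 2-fold lower in replicate 2, and their summed level was 73.9 TPM in replicate 1 and 13.8 in replicate 2. All 5 osteoblast markers were lower there, 3 of them over 2-fold, with sums of 16.2 and 2.00 TPM. Ibsp had 471 and 0 counts, whereas Dmp1 had 73 and 65 and Phex had 122 and 102. Hypertrophic cartilage markers summed to 1.42 and 0.08 TPM, with Col10a1 and Panx3 at 0 in replicate 2 and Ihh at 7 and 6 counts. Osteoclast markers summed to 7.32 and 3.24 TPM, mostly through Acp5 (5.40 and 1.33 TPM). Of the other osteoclast markers, Dcstamp had 6 and 0 counts, Atp6v0d2 had 15 and 4, Calcr had 149 and 199, and Ocstamp had 3 and 5. The 5 tendon markers were also all lower, 3 of them over 2-fold, with sums of 248 and 125 TPM. Skeletal muscle markers were high in both, at 33628 and 39945 TPM with 5 of 5 detected, and macrophage markers were nearly equal at 73.5 and 71.8 TPM. Liver markers went the other way, with 6.95 and 74.6 TPM. The part of these cells in the Mmp9, Mmp13 and Mmp8 differences was not tested.

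**Figure D5:**
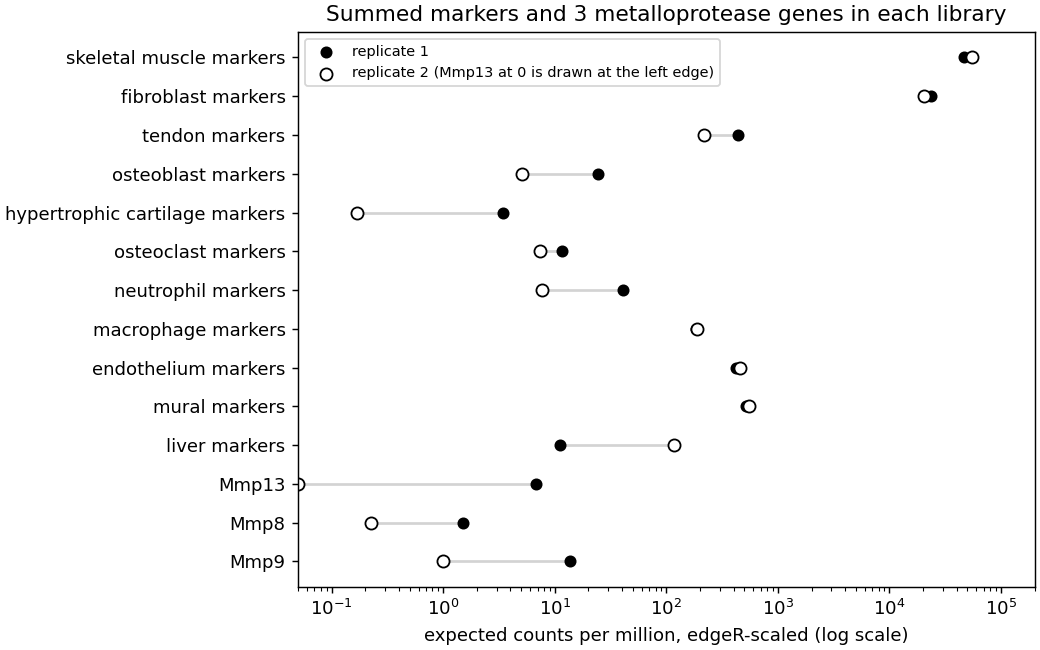
Summed expected counts per library size (CPM) after edgeR scaling (horizontal axis, logarithmic) of each marker list and of Mmp13, Mmp8 and Mmp9 (rows) in replicate 1 (filled) and replicate 2 (open). Fibroblast, tendon, osteoblast, hypertrophic cartilage, osteoclast, neutrophil and the 3 Mmp rows have replicate 2 to the left of replicate 1. The liver row has the widest shift to the right.

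Smaller gaps were found in Timp1, Adamts18, Mmp19 and Adamts3, among others. Timp1 was 1.81-fold lower in replicate 2, with an interval of 1.35 to 2.44. Adamts18, with 36 and 67 counts, had a log2 ratio of 0.69, Mmp19 of -0.66 and Adamts3 of -0.60. By contrast Timp3 had a log2 ratio of 0.02, Timp2 of -0.04, Mmp14 of -0.10 and Mmp2 of -0.13. Mmp9 was 0.83-fold Timp1 in replicate 1 and 0.111-fold in replicate 2 by TPM. By expected counts it was 3.43-fold and 0.449-fold, and in the other quantification 1.18-fold and 0.0908-fold, so the order in replicate 1 turned with the measure.

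Several of these genes share their locus with another gene, and the sources used here do not say how strand was used in counting. Of the 51 genes, 24 overlap another annotated gene, and 10 overlap one whose mean reached 10 counts. Timp3, Timp1 and Timp4 each lie within a synapsin gene on the opposite strand. Syn3 had 12 and 10 counts and Syn1 had 6 and 5, far under Timp3 and Timp1, while Syn2 had 96 and 134, as many as Timp4. Mmp11 overlaps Chchd10, with 1810 and 2373 counts, on the opposite strand. The levels of Mmp11 and Timp4 are less certain for this reason.

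Most of the listed genes that activate, clear or complement these enzymes were detected. Beside each list below stands the 55% of all protein-coding genes that were detected. Of 17 further inhibitors and activators, 15 were detected, with a median of 10.6 TPM. They were led by Bsg (149 ± 3.09 TPM), an inducer of Mmp genes, and Lrp1 (71.2 ± 0.41 TPM), the receptor that takes up many proteases and inhibitors. Furin (29.5 ± 1.51 TPM), the convertase that activates Mmp14 and several ADAMTS proenzymes, and Serping1 (26.4 ± 0.276 TPM) followed. Reck, a membrane-anchored inhibitor of Mmp14, Mmp2 and Mmp9, had 9.43 and 9.92 TPM. A2m (0.15 and 0.22 TPM) and Pzp (0.34 and 2.56 TPM) were under detection. Pzp, a broad protease inhibitor secreted by liver, had 26 and 294 counts, and the liver markers named above were also higher in replicate 2; their part in it was not tested.

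Of 8 ADAM sheddase genes, 7 were detected with a median of 16.5 TPM over the list, led by Adam10 (23.5 ± 0.198 TPM), Adam15 (21.2 ± 0.212 TPM), Adam19 (18.0 ± 0.841 TPM) and Adam9 (16.8 ± 1.03 TPM). All 7 other matrix proteases were detected, led by the cathepsin genes Ctsb (94.7 ± 4.01 TPM) and Ctsl (70.5 ± 2.06 TPM). Bmp1 (37.8 ± 2.02 TPM), the procollagen C-proteinase, stood above Adamts2, the leading N-proteinase gene. Ctsk, the collagen-cutting cathepsin gene abundant in osteoclasts, had 29.5 and 18.9 TPM.

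Of 14 substrate genes, 13 were detected, with a median of 108 TPM, and collagens led them. Col1a1 (2566 ± 544 TPM), Col3a1 (2085 ± 0.0141 TPM), Col1a2 (1507 ± 348 TPM) and Col4a1 (392 ± 31.5 TPM) all stood above every protease and inhibitor gene of the set. The aggrecan gene Acan had 3.86 and 2.58 TPM, while the versican gene Vcan, whose product is cut by Adamts1, Adamts5 and Adamts9 among others, had 78.6 and 84.4 TPM. The Comp gene, of a substrate of Adamts7 and Adamts12, had 5.57 and 1.79 TPM, below Adamts12 in both libraries.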

How the data were processed

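Total RNA-seq of 1 group of 2 libraries was analysed. For each library the authors deposited expected counts and TPM per gene and per transcript. They also deposited estimated counts and TPM per transcript from a different quantification, which were summed per gene here and are called the other quantification. Per the file headers and accompanying notes, the build was mm10 with GENCODE M21; no source used here names the aligner or the quantification programs. Lengths in the deposited tables were used as the authors gave them.

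Expected counts were rounded and scaled with edgeR 4.0.16 (R 4.3.3) by trimmed mean of M values over all genes whose mean reached 10 counts, and log2 ratios used a prior count of 2. The steps were tested on simulated data. Python 3.11.15 and pandas 2.3.3 did the rest. Intervals are exact binomial 95% and, like the floor of 3 counts, cover counting error only. DESeq2 1.42.0 size factors, library size and spike-ins were alternatives; so were 2 transcript subsets chosen after seeing the data. Every member is named, and up to 4 partner genes of highest TPM per list are named. Others (Reck, A2m, Pzp, Ctsk, Acan, Vcan, Comp) were chosen after their values were seen, as were the printed promoters and zinc sites. Members and lists were chosen with earlier results of these data known. Nothing in the labels says the animals came from separate litters. Reads of the CAST/EiJ allele were counted on the mm10 reference. Coordinates are 1-based.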

Additional observations from a re-analysis of the deposited data

How the results depend on the processing

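With 5 TPM as the minimum, 21 genes were detected. The joint protease to TIMP ratio was 3.40 by expected counts, 2.26 in the other quantification, 6.72 without Mmp2 and Timp2, 2.67 over protein-coding transcripts and 3.06 over leading transcripts, the last 2 chosen after seeing the data. By expected counts, the other quantification, protein-coding transcripts and leading transcripts, the Mmp to Timp ratio was 1.55, 1.43, 1.85 and 2.06, and the Adamts to Timp ratio was 1.85, 0.825, 0.828 and 1.00. In the other quantification 1 gene, Mmp9, was over 2-fold apart at a mean of at least 100 counts, since Mmp13 had a mean of 99 there. Scaled by spike-ins, the median log2 ratio of the 40 genes was -0.21, with all genes shifted to -0.14; relative to that shift the calls of Mmp9, Mmp13 and Mmp8 had the same direction. TPM in the other quantification ran at a median of 1.75 times the gene table over detected protein-coding genes and 1.71 over the detected members, with 2.42 for Timp2, the highest. Replicate 1 alone gave 35 detected genes and replicate 2 alone gave 32. No comparison between conditions, paired or not, was possible because the series has 1 group. Ratios between genes or families were taken within each library, so they are paired by library. With 2 libraries no difference between libraries could be tested, and genes under about 100 counts had wide counting intervals.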

Other observations

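The quantifications disagreed for Mmp12. The gene table gave it 1 and 0 counts, whereas the other quantification gave 67.2 and 59.6. Of these, 64.1 and 58.6 were placed on Mmp12-206, a retained-intron transcript of 4474 bases, and 0 on Mmp12-201, the longest protein-coding transcript. Mmp12 and Mmp1b overlap on opposite strands, and Mmp1b had 0 counts.

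For Adamts4 the leading transcript changed between the libraries in the gene table's quantification. Adamts4-203, of 4386 bases, held 77.5% of the TPM in replicate 1 and 2.49% in replicate 2, and Adamts4-202, of 4389 bases, held 6.17% and 89.2%. In the other quantification Adamts4-202 held 79.3% and 94.5%. The lengths of the transcripts differ by 3 bases, and no allele-specific counts were used here.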
